A study of Mus musculus with 20 samples.

Results

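The comparison is that of streptozotocin (STZ) with vehicle in the posterior insular cortex (pIC) of the mouse, across every expressed gene. The libraries were chosen by the tissue and treatment in their labels: 10 of the 20 in the series are from pIC, 4 from vehicle controls and 6 from mice given STZ. STZ is a glucose-like nitrosourea that enters insulin-producing beta cells and kills them, so that the animals become diabetic; here it was injected once into the peritoneum at 200 mg/kg to model painful diabetic neuropathy. Tissue punches were taken from fresh brains at week 7 in both groups, and their poly(A) RNA was sequenced in stranded libraries. The other 10 libraries are from the paraventricular thalamic nucleus (PVT) under the same treatments, 4 controls and 6 STZ. The sources used here do not state strain, sex, age or blood glucose. The labels do not say whether a library holds 1 mouse or several, so the p-values measure only the spread between these libraries.

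The insular cortex receives visceral, pain and temperature input and is tied to the affective side of pain. Cells make cholesterol from acetyl-CoA through mevalonate, squalene and lanosterol, and the brain depends on its own synthesis because plasma cholesterol barely crosses the blood-brain barrier. When sterol in the endoplasmic reticulum is scarce, SCAP carries SREBP to the Golgi, where it is cut free to switch on most of the pathway. When sterol is plentiful, INSIG proteins hold the SCAP and SREBP complex back. MHC class I molecules show peptides, cut by the proteasome and pumped into the endoplasmic reticulum by the TAP transporter, at the cell surface; most of these genes are also targets of interferon. Brain endothelial cells form the barrier with tight junctions, few vesicles and dedicated transporters, and border macrophages sit beside the vessels and in the meninges.

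Each pIC library held between 18969221 and 25533369 counts, and 5.57% to 7.01% of them came from mitochondrial genes. Levels below are counts per 1000000 of a library's total (CPM). Markers of cortical tissue were present in all 10 libraries: the 19 markers of excitatory cortical neurons, such as the vesicular glutamate transporter Slc17a7, summed to between 4552 and 6485.6 CPM. Markers of the neighbouring striatum were present too and uneven. Their 22 genes summed to between 975.6 and 2494 CPM in controls, while in STZ libraries they reached 5806 CPM in STZ replicate 3, 2270.2 CPM in STZ replicate 6 and 932.4 to 1965 CPM in the others. None of the 22 passed the test in edgeR (0 at an unadjusted p under 0.05, and 0 called by DESeq2 or limma-voom), yet all 22 fitted values were positive with a median log2 fold change of 0.73. Calls of named genes that were lost without the 3 libraries highest in striatal markers (STZ 3, control 3 and STZ 6) are therefore also given.

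A gene was called when its Benjamini-Hochberg adjusted p in edgeR's quasi-likelihood test was under 0.05. Of 16189 genes tested, 226 were called (1.40%), 70 higher in STZ (0.432%) and 156 lower (0.964%). Members of the lists of interferon-stimulated, glucocorticoid-responsive and immediate early genes made up 94 of these and are set aside. Genes outside these lists can belong to the same responses. The class I genes, most of which are also targets of interferon, are among the rest. The remaining 132 genes, described below, divide into 58 higher and 74 lower, with median log2 fold changes of 0.46 and -0.56. That balance turned with the tool and the design. Outside the set-aside lists DESeq2 called 186 higher and 143 lower, and edgeR with a replicate block 90 higher and 59 lower. STZ 5 and STZ 6 have no control of the same number, so they add nothing to the contrast with the block. Changes were mostly small: 7 rose and 7 fell by 2-fold or more. The groups did not overlap in 54 of the 58 higher and 72 of the 74 lower genes; among all tested genes the groups separated upward in 1.60% and downward in 2.63%, or 4.23% in either direction. Over all tested genes the median log2 fold change was close to 0, and 49.8% of the values were positive. All 132 kept their direction in each of 23 alternatives, and 38 stayed called whichever single library was left out. The threshold of 0.01 and the minimum fold of 1.2 reuse the main model, so direction could not turn there. The other alternatives share most or all libraries with the main fit, so kept directions are weak support. The count outside the set-aside lists was 52 without control 2 and 60 without control 1, the lowest values with 1 library left out.

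Genes of cholesterol synthesis were lower in STZ. All 27 members of the list were tested; 10 fell (where 0.964% of all tested genes were called lower), none rose, and 25 of the 27 fitted values were negative with a median log2 fold change of -0.27. Summed over the list, every control library (1910.2 to 1944 CPM) lay above every STZ library (1391 to 1735 CPM). The groups separated downward in 14 of the 27 genes, against 2.63% of all tested genes.

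The genes that fell include early and late steps of the pathway. Insig1 (ENSMUSG00000045294), which retains the SCAP and SREBP complex and is itself an SREBP target, was measured at 76.9, 80.6, 85.1 and 76.03 CPM in controls and 35.97, 50.2 and 57.96 CPM (lowest, median, highest) in STZ libraries. Insig1 had a log2 fold change of -0.68 ± 0.10 (SE; edgeR adjusted p = 0.00439). STZ replicate 5 was the lowest and STZ replicate 2 the highest of the STZ libraries, and no STZ library reached the lowest control. Sqle, the squalene epoxidase that catalyses the first oxygen-dependent step, was measured at 67.04, 66.1, 65.9 and 66.9 CPM in controls and 44.6, 50.2 and 54.7 CPM (lowest, median, highest) in STZ libraries. Sqle had a log2 fold change of -0.41 ± 0.07 (SE; edgeR adjusted p = 0.00548). The 4 controls lay close together and the groups did not overlap.

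Mvd, which decarboxylates mevalonate diphosphate to the first isoprenoid unit, was at 17.9, 21.4, 19.9 and 19.9 CPM in controls and 10.8, 12.5 and 16.2 CPM (lowest, median, highest) in STZ libraries. Mvd had a log2 fold change of -0.61 ± 0.11 (SE; edgeR adjusted p = 0.0111). Every STZ library lay below every control. Dhcr7, the reductase of the final step, was at a log2 fold change of -0.45 (edgeR adjusted p = 0.0206), and the methylsterol oxidase Msmo1 at -0.44 (edgeR adjusted p = 0.0400). Mevalonate kinase Mvk was at -0.38 (edgeR adjusted p = 0.0282), the lanosterol demethylase Cyp51 at -0.34 (edgeR adjusted p = 0.0269) and the farnesyl diphosphate synthase Fdps at -0.27 (edgeR adjusted p = 0.0308).

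Members that did not pass include Hmgcs1, the synthase of an early step, at -0.37 (edgeR adjusted p = 0.0614), and the isomerase Idi1 at -0.42 (edgeR adjusted p = 0.103), in both of which the groups nevertheless did not overlap. Transcripts of the regulators had fitted values close to 0: Srebf2 had a log2 fold change of -0.10 (edgeR adjusted p = 0.477), Scap of -0.01 (edgeR adjusted p = 0.981) and Insig2 of 0.07 (edgeR adjusted p = 0.662). The separate list of fatty acid synthesis, with Fasn, Scd1 and Srebf1, had no called gene in edgeR among 21 tested (3 at an unadjusted p under 0.05, 1 called by DESeq2 and 0 by limma-voom) and a median of -0.06. The number of cholesterol genes called depended on the libraries: Insig1 and Sqle stayed called with any 1 library left out, whereas without control 2 the other 8 missed the threshold, with edgeR adjusted p between 0.0624 and 0.171 for the 6 named here, and 4, 6 and 3 genes were called without control 1, 3 and 4, and 5 without STZ 6. Without the 3 libraries highest in striatal markers Sqle alone was called, and Insig1 was at an adjusted p of 0.0527.

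**Figure D1:**
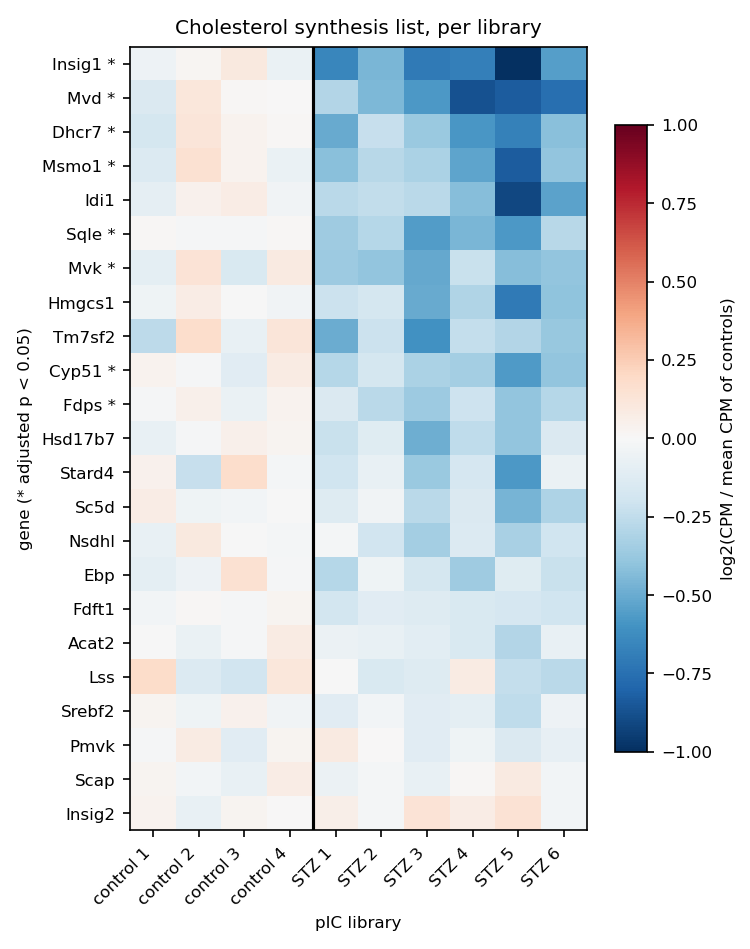
Heat map of 23 cholesterol synthesis genes (rows, ordered by log2 fold change) in the 10 pIC libraries (columns), coloured by log2 of CPM over the mean CPM of the 4 controls and capped at 1 either way; an asterisk marks genes called by edgeR. The 8 called genes shown are blue in all 6 STZ libraries, Insig1 and Msmo1 most deeply in STZ 5, while Scap and Insig2 at the foot stay near white.

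The promoters of 2 called cholesterol genes and 2 called class I genes are printed because members of both groups moved together. The sequences are from RefSeq on GRCm38.p6, not the GRCm39 build named in the submitters' processing notes, and run from up to 250 bases before the start site to the last base before any annotated exon. Capitals mark CCAAT on either strand (the NF-Y letters, read ATTGG on the other strand), the E-box CACGTG, and the interferon response letters GAAA, any 2 bases, GAAA. Insig1 is at chr5:28071162-28071362, plus strand; Mvd at chr8:122443423-122443672, minus strand; B2m at chr2:122147437-122147685, plus strand; and H2-K1 at chr17:34000348-34000597, minus strand.
Insig1: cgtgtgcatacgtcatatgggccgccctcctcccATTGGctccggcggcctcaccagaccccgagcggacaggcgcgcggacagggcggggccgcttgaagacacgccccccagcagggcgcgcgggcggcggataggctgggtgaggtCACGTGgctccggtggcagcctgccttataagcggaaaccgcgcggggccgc
Mvd: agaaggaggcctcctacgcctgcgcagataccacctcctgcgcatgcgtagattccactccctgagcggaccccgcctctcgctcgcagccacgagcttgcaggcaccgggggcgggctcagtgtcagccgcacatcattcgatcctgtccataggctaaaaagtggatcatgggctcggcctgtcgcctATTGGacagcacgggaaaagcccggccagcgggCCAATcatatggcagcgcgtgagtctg
B2m: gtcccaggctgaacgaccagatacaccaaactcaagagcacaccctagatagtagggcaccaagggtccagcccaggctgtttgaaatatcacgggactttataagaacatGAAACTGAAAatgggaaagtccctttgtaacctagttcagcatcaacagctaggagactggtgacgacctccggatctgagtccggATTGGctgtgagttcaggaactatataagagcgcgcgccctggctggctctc
H2-K1: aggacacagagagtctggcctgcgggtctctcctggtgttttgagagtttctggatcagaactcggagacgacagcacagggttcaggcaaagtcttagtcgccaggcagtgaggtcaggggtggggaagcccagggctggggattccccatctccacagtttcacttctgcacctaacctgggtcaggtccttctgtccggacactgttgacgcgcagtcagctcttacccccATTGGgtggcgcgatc

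In the 250 bases before the start, CCAAT on either strand was found in 33.8% of all 32851 windows of the table, in 17 of the 25 windows of the 19 cholesterol genes that matched, and in 16 of the 22 windows of the 20 class I genes that matched. CACGTG was in 6.02% of all windows and in 5 of the 25 cholesterol windows. The sterol element letters TCACNCCAC, searched on both strands, were in 1.05% of all windows and in 1 cholesterol window, that of Hmgcs1. The interferon response letters were found on either strand in 2.98% of all windows and in 3 of the 22 class I windows, those of B2m, H2-T22 and H2-T23. These matches describe letters only. Exact letters alone were counted, so other forms of these elements were missed. A window without a match, such as that of H2-K1 for the interferon letters, may still hold one. Of the called genes named here Sqle, Fdps and Tap2 were not matched.

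Of 23 tested genes of MHC class I presentation 10 fell (where 0.964% of all tested genes were called lower) and none rose. Of the fitted values 20 were negative, with a median log2 fold change of -0.46. With the replicate block 5 of the 23 were called, all lower. Tap1 (ENSMUSG00000037321), one of the 2 subunits of the peptide transporter, was measured at 4.54, 5.76, 4.68 and 5.29 CPM in controls and 1.53, 1.70 and 2.08 CPM (lowest, median, highest) in STZ libraries. Tap1 had a log2 fold change of -1.50 ± 0.13 (SE; edgeR adjusted p = 2.25e-05). It had the smallest p of all genes outside the set-aside lists, and the highest STZ value was under the lowest control. The other transporter subunit, Tap2, was at a log2 fold change of -0.59 (edgeR adjusted p = 0.0319), and Tapbp, the tapasin that bridges transporter and empty class I molecules, at -0.35 (edgeR adjusted p = 0.0131).

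B2m, the light chain shared by all class I molecules, was measured at 183, 215, 161 and 166 CPM in controls and 96.4, 105 and 115 CPM (lowest, median, highest) in STZ libraries. B2m had a log2 fold change of -0.77 ± 0.08 (SE; edgeR adjusted p = 0.000104). The groups did not overlap. H2-K1, a classical heavy chain, was measured at 64.6, 73.4, 45.1 and 53.8 CPM in controls and 22.4, 29.97 and 34.5 CPM (lowest, median, highest) in STZ libraries, with control 2 the highest library and the groups apart. H2-K1 had a log2 fold change of -1.02 ± 0.14 (SE; edgeR adjusted p = 0.00437). The other classical heavy chain, H2-D1, was at -0.79 (edgeR adjusted p = 0.00662), and the non-classical H2-Q4 at -1.03 (edgeR adjusted p = 0.0387). Class I heavy chain genes are close copies of one another and the sources used here do not say how reads shared between them were counted, so values of single H2 genes are uncertain.

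Psmb8, a catalytic subunit that replaces its constitutive counterpart in the immunoproteasome, was measured at 6.25, 6.82, 5.20 and 4.72 CPM in controls and 1.88, 2.35 and 3.69 CPM (lowest, median, highest) in STZ libraries. Psmb8 had a log2 fold change of -1.19 ± 0.17 (SE; edgeR adjusted p = 0.00218). Every STZ library was below every control. Psmb9, another such subunit whose start site lies back to back with that of Tap1, was at -1.23 (edgeR adjusted p = 0.00972), and the proteasome activator subunit Psme2 at -0.37 (edgeR adjusted p = 0.00870). The third inducible subunit, Psmb10, had a log2 fold change of -0.10 (edgeR adjusted p = 0.764). The general chaperones of the endoplasmic reticulum that also serve class I assembly had fitted values close to 0, at 0.06 (edgeR adjusted p = 0.796) for Calr, 0.04 (edgeR adjusted p = 0.865) for Canx and 0.04 (edgeR adjusted p = 0.874) for Pdia3. The class II list had no called gene in edgeR among 8 tested (1 at an unadjusted p under 0.05, 1 called by DESeq2 and 0 by limma-voom) and a median of -0.13. Without control 2, Psmb9, Tapbp, Tap2 and H2-Q4 missed the threshold (edgeR adjusted p from 0.053 to 0.152), leaving 6 called. Tapbp was also lost without control 1 (0.0572), Tap2 without 7 other single libraries and H2-Q4 without 5 others. Psme2 was at 0.0779 and Tapbp at 0.0992 without the 3 libraries highest in striatal markers.

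**Figure D2:**
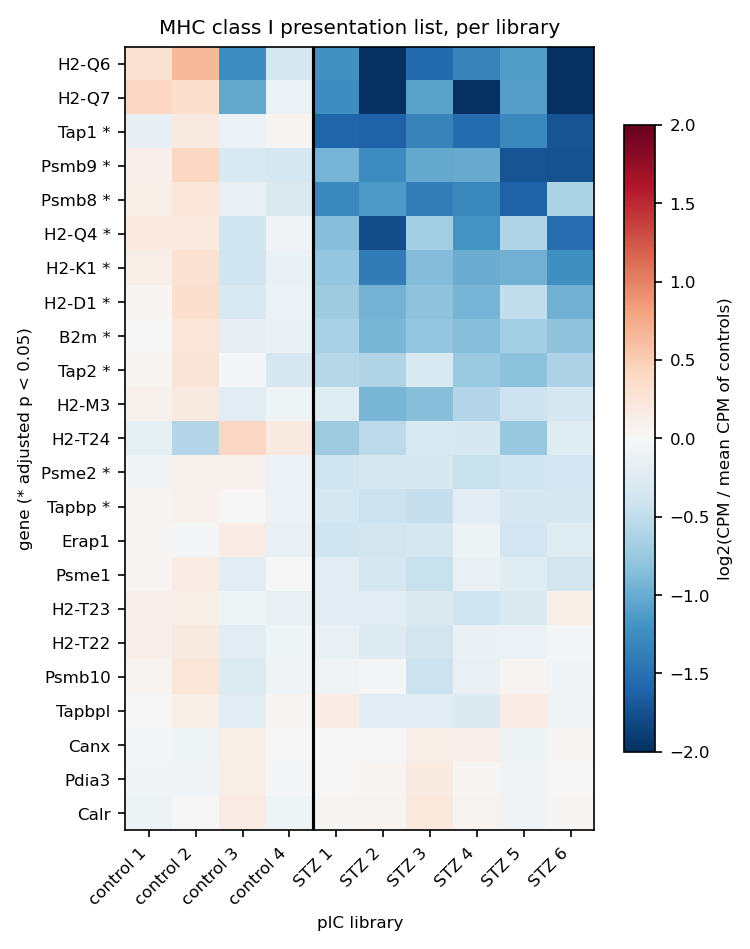
Heat map of the 23 class I presentation genes in the 10 pIC libraries, coloured by log2 of CPM over the mean CPM of the 4 controls and capped at 2 either way; an asterisk marks genes called by edgeR. Tap1, Psmb8, Psmb9, H2-K1, H2-D1 and B2m are blue in all 6 STZ libraries, while Calr, Canx and Pdia3 at the foot stay near white.

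Genes known from vessels that fell include S1pr1, Itm2a, Tek and Sox18. In the angiogenesis and hypoxia list 3 of 34 tested genes fell, Sox18, Tek and Pdgfb (where 0.964% of all tested genes were called lower), and none rose. In that list 17 were at an unadjusted p under 0.05 (against 11.8% of all tested genes), and the median log2 fold change was -0.05. S1pr1 (ENSMUSG00000045092), the sphingosine 1-phosphate receptor of endothelium and astrocytes, was measured at 159, 179.6, 167 and 157 CPM in controls and 109, 118 and 134 CPM (lowest, median, highest) in STZ libraries. S1pr1 had a log2 fold change of -0.47 ± 0.06 (SE; edgeR adjusted p = 0.00149). Itm2a, a membrane protein used as an endothelial marker, was at 55.4, 63.5, 51.3 and 57.03 CPM in controls and 37.1, 39.95 and 43.96 CPM (lowest, median, highest) in STZ libraries. Itm2a had a log2 fold change of -0.49 ± 0.07 (SE; edgeR adjusted p = 0.00218). In both genes the groups did not overlap.

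Tek, the angiopoietin receptor also called Tie2, was at 14.8, 16.1, 16.6 and 14.3 CPM in controls and 8.93, 10.5 and 12.97 CPM (lowest, median, highest) in STZ libraries. Tek had a log2 fold change of -0.55 ± 0.10 (SE; edgeR adjusted p = 0.0146). Its call was lost without control 2 (adjusted p = 0.0695) or control 3 (0.0566). Sox18, a transcription factor of endothelial cells, was at 9.98, 14.4, 11.2 and 10.1 CPM in controls and 6.09, 6.93 and 8.49 CPM (lowest, median, highest) in STZ libraries. Sox18 had a log2 fold change of -0.68 ± 0.12 (SE; edgeR adjusted p = 0.0111). Pdgfb, the growth factor with which endothelium recruits pericytes, was at a log2 fold change of -0.43 (edgeR adjusted p = 0.0294), a call lost without any 1 of control 1, 2 or 4 or STZ 4 or 6 (adjusted p from 0.065 to 0.128). The adhesion molecule Icam2, at -0.96 (edgeR adjusted p = 0.0123), and the endothelial repressor Bcl6b, at -0.83 (edgeR adjusted p = 0.0427), were picked after their values were seen. Bcl6b was lost in 9 of 10 leave-outs, all but that of STZ 3 (edgeR adjusted p from 0.0591 to 0.151). It was also lost without the 3 libraries highest in striatal markers (0.0781).

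Over the whole endothelial marker list 2 of 23 tested genes fell, Itm2a and Tek (where 0.964% of all tested genes were called lower), none rose, and the median log2 fold change was -0.11. At an unadjusted p under 0.05 there were 9 of the 23, against 11.8% of all tested genes. The groups separated downward in 5, against 2.63% of all tested genes, and upward in 1, Ctla2a, against 1.60%. Members that did not pass ran from Sox17 at -0.56 (edgeR adjusted p = 0.175) to Ctla2a at 0.69 (edgeR adjusted p = 0.111), with Emcn at -0.48 (edgeR adjusted p = 0.127) and Tie1 at -0.43 (edgeR adjusted p = 0.0501). Pecam1 was at 0.00 (edgeR adjusted p = 0.996), Cdh5 at -0.04 (edgeR adjusted p = 0.881) and Flt1 at 0.08 (edgeR adjusted p = 0.777). The summed level of the list overlapped between groups, from 769.2 to 806.6 CPM in controls and from 731.7 to 815.7 CPM in STZ libraries, and no marker was at 0. The mean of the markers on the log2 scale, in contrast, was 4.54 to 4.69 in controls and 4.40 to 4.54 in STZ libraries. The groups did not overlap, but control 1 at 4.544 and STZ 6 at 4.541 nearly met. That mean includes Itm2a and Tek, both called lower in these data. With that mean as a covariate 9 of the 132 calls remained, among them Tap1, Smox, Ppp1r10, Nes and Cbs, with Tap1 the 1 class I gene and no cholesterol gene; since the covariate separates the groups, its part and that of STZ cannot be told apart. In tissue punches, fewer cells of a type and less RNA per cell cannot be told apart either. Markers of mural cells had no called gene in edgeR among 18 (5 at an unadjusted p under 0.05, against 11.8% of all tested genes, and 0 called by DESeq2 or limma-voom). Tight and adherens junction genes had none among 16 (2 at an unadjusted p under 0.05, 0 by either other tool).

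Of 28 tested transporters of the blood-brain barrier 1 rose, Mfsd2a, and 1 fell, Slc16a1 (where 1.40% of all tested genes were called). The other 26 did not pass, and the median was -0.10. At an unadjusted p under 0.05 there were 9 of the 28, against 11.8% of all tested genes, with 4 called by DESeq2 and 3 by limma-voom. The groups separated downward in 3 and upward in 1, against 2.63% and 1.60% of all tested genes. Mfsd2a (ENSMUSG00000028655), which carries lysophosphatidylcholine with docosahexaenoic acid into the brain and keeps vesicle traffic through endothelium low, was measured at 22.96, 20.9, 21.9 and 23.9 CPM in controls and 32.1, 35.00 and 39.7 CPM (lowest, median, highest) in STZ libraries. Mfsd2a had a log2 fold change of 0.67 ± 0.08 (SE; edgeR adjusted p = 0.000243). Every STZ library was above every control. Slc16a1, the carrier of lactate, pyruvate and ketone bodies, was measured at 35.00, 34.5, 32.7 and 37.8 CPM in controls and 21.3, 22.3 and 30.4 CPM (lowest, median, highest) in STZ libraries. Slc16a1 had a log2 fold change of -0.56 ± 0.09 (SE; edgeR adjusted p = 0.00685). STZ replicate 5 stood above the other STZ libraries but below all controls.

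The barrier glucose transporter Slc2a1 did not pass the test: it was at 131, 131, 131 and 120.4 CPM in controls and 129, 168 and 193 CPM (lowest, median, highest) in STZ libraries, and the groups overlapped. Slc2a1 had a log2 fold change of 0.37 ± 0.09 (SE; edgeR adjusted p = 0.0866). Pltp, a phospholipid transfer protein that remodels lipoproteins, was at 69.9, 94.02, 71.1 and 60.3 CPM in controls and 39.3, 45.9 and 48.9 CPM (lowest, median, highest) in STZ libraries, with no overlap. Pltp had a log2 fold change of -0.70 ± 0.10 (SE; edgeR adjusted p = 0.00369). Apoe, the main apolipoprotein of the brain, was at a log2 fold change of -0.09 (edgeR adjusted p = 0.616), and the cholesterol exporter Abca1 at 0.20 (edgeR adjusted p = 0.307).

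Of 8 tested markers of border macrophages 2 rose, Stab1 and Lyve1 (where 0.432% of all tested genes were called higher), and none fell. Stab1 (ENSMUSG00000042286), a scavenger receptor of these cells, was measured at 8.05, 8.37, 8.08 and 7.14 CPM in controls and 10.7, 11.8 and 12.7 CPM (lowest, median, highest) in STZ libraries. Stab1 had a log2 fold change of 0.58 ± 0.08 (SE; edgeR adjusted p = 0.00218). Lyve1, a hyaluronan receptor of perivascular macrophages and lymphatic endothelium, was at 0.942, 0.640, 0.992 and 0.970 CPM in controls and 1.45, 1.96 and 2.54 CPM (lowest, median, highest) in STZ libraries. Lyve1 had a log2 fold change of 1.15 ± 0.22 (SE; edgeR adjusted p = 0.0153). The groups did not overlap in either, though Lyve1 was close to 1 CPM in controls and lost its call without control 1 (adjusted p = 0.0524) or control 2 (0.0624).

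Of the 12 markers in that list 8 had enough counts to be tested, and their median was 0.50. Cd163, a haemoglobin scavenger receptor, was at 0.82 (edgeR adjusted p = 0.100), F13a1 at 0.90 (edgeR adjusted p = 0.0927) and the mannose receptor Mrc1 at 0.41 (edgeR adjusted p = 0.416), none passing. The summed level was 17.8 to 24.05 CPM in controls and 25.7 to 32.8 CPM in STZ libraries without overlap. Stab1 made up a large part of that sum, with means of 7.91 CPM in controls and 11.8 CPM in STZ libraries. The separation of the sum is therefore not independent of the Stab1 call. Microglial markers, by comparison, had no called gene in edgeR among 20 tested (3 at an unadjusted p under 0.05, 1 called by DESeq2 and 0 by limma-voom) and a median of -0.10. Cd14, the co-receptor for bacterial lipopolysaccharide on myeloid cells, was at 1.37, 1.51, 1.65 and 2.07 CPM in controls and 2.68, 3.19 and 3.72 CPM (lowest, median, highest) in STZ libraries. Cd14 had a log2 fold change of 0.96 ± 0.16 (SE; edgeR adjusted p = 0.00653). C5ar1, the receptor of complement fragment C5a, was higher at 1.03 (edgeR adjusted p = 0.0400) but lost its call without any 1 library other than STZ 2 or STZ 6 (adjusted p from 0.0524 to 0.141). Cd14 was at an edgeR adjusted p of 0.0624 and C5ar1 at 0.0945 without the 3 libraries highest in striatal markers.

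**Figure D3:**
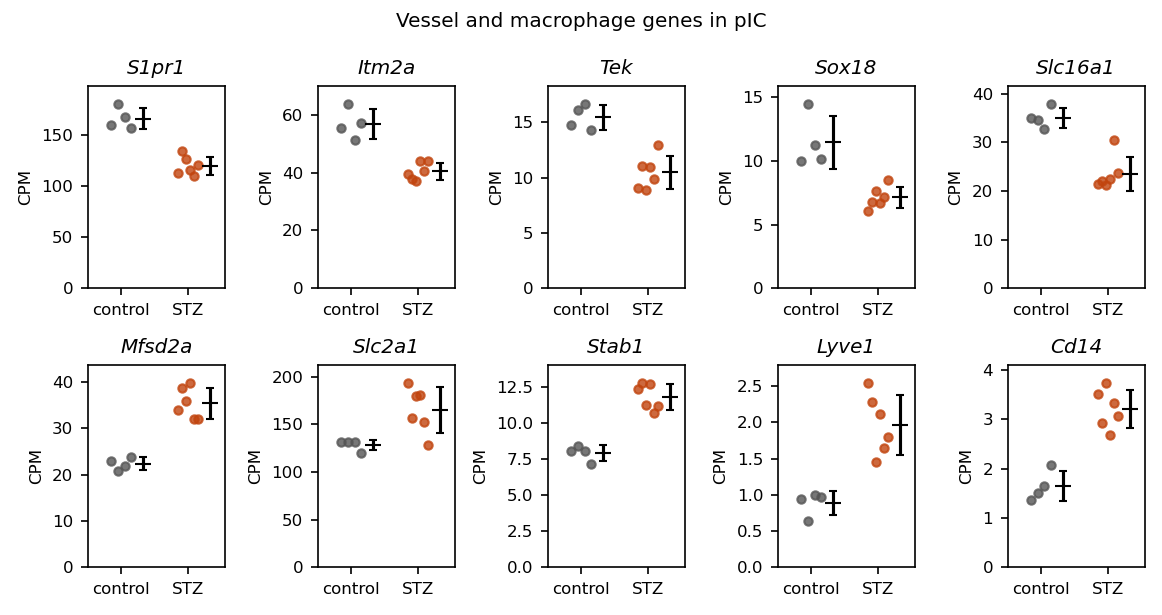
CPM of 10 vessel and macrophage genes in the 4 control and 6 STZ libraries of pIC; points are libraries, and the bar gives mean and SD. The groups are apart in 9 genes, lower in STZ for S1pr1, Itm2a, Tek, Sox18 and Slc16a1 and higher for Mfsd2a, Stab1, Lyve1 and Cd14, and overlap in Slc2a1.

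The gene with the smallest p among those that rose was Smox (ENSMUSG00000027333), the spermine oxidase that turns spermine into spermidine and releases hydrogen peroxide. It was measured at 34.7, 35.3, 35.8 and 36.4 CPM in controls and 48.04, 50.9 and 53.7 CPM (lowest, median, highest) in STZ libraries. Smox had a log2 fold change of 0.53 ± 0.05 (SE; edgeR adjusted p = 5.93e-05). The spread within each group was a small part of the gap between them. The other 17 polyamine genes tested did not pass, and the list's median was 0.01.

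Ppp1r10, a nuclear targeting subunit of protein phosphatase 1, was at 42.8, 42.9, 49.4 and 46.9 CPM in controls and 63.5, 69.7 and 73.3 CPM (lowest, median, highest) in STZ libraries, again with no overlap. Ppp1r10 had a log2 fold change of 0.60 ± 0.06 (SE; edgeR adjusted p = 0.000104). Htra1, a secreted serine protease, was at 152, 156, 156 and 146 CPM in controls and 184, 196 and 213 CPM (lowest, median, highest) in STZ libraries. Htra1 had a log2 fold change of 0.37 ± 0.05 (SE; edgeR adjusted p = 0.00149). Cbs, which condenses serine with homocysteine at the entry to transsulfuration, was at 19.4, 21.3, 18.9 and 17.98 CPM in controls and 24.7, 26.2 and 29.6 CPM (lowest, median, highest) in STZ libraries. Cbs had a log2 fold change of 0.45 ± 0.07 (SE; edgeR adjusted p = 0.00440). All 3 stayed called with any 1 library left out.

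Tekt4 (ENSMUSG00000024175), a tektin of ciliary and sperm tail microtubules, showed the largest fold change among named genes, from a low level: 0.471, 0.274, 0.520 and 0.353 CPM in controls and 1.27, 1.99 and 2.51 CPM (lowest, median, highest) in STZ libraries. Tekt4 had a log2 fold change of 2.25 ± 0.27 (SE; edgeR adjusted p = 0.000397). The groups did not overlap, and STZ replicate 3 was highest. It belongs to the ependymal list, in which the other 9 tested genes did not pass and Foxj1, the regulator of motile cilia, was at 0.26 (edgeR adjusted p = 0.738); that list summed to 10.8 to 15.3 CPM in controls and 12.5 to 24.4 CPM in STZ libraries, highest in STZ 3, and its part in the result was not tested. Tekt4 stayed called without the 3 libraries highest in striatal markers, STZ 3 among them. Pkp2, a plaque protein of desmosomes, was at 4.11, 3.80, 4.39 and 5.29 CPM in controls and 6.82, 9.34 and 10.3 CPM (lowest, median, highest) in STZ libraries. Pkp2 had a log2 fold change of 1.01 ± 0.15 (SE; edgeR adjusted p = 0.00218).

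Further genes rose. Dab1, the adaptor that relays reelin signals inside neurons, was at 94.8, 82.3, 92.1 and 93.2 CPM in controls and 106, 115 and 119 CPM (lowest, median, highest) in STZ libraries. Dab1 had a log2 fold change of 0.33 ± 0.05 (SE; edgeR adjusted p = 0.00561). The WNT receptor Fzd2 was at a log2 fold change of 0.71 (edgeR adjusted p = 0.00977), lost without control 2 (adjusted p = 0.0517), and the synaptic adhesion protein Lrrtm3 at 0.36 (edgeR adjusted p = 0.0391). Gjb6, which codes for connexin 30 of astrocyte gap junctions, was at 63.8, 65.5, 64.7 and 57.96 CPM in controls and 68.8, 76.3 and 81.5 CPM (lowest, median, highest) in STZ libraries. Gjb6 had a log2 fold change of 0.28 ± 0.06 (SE; edgeR adjusted p = 0.0273). It was the 1 called gene of 24 tested astrocyte markers (where 1.40% of all tested genes were called), and their median was -0.05.

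Serpina3n, a protease inhibitor typical of reactive astrocytes, was at 13.1, 14.5, 11.8 and 13.2 CPM in controls and 14.7, 19.3 and 22.8 CPM (lowest, median, highest) in STZ libraries. Serpina3n had a log2 fold change of 0.55 ± 0.11 (SE; edgeR adjusted p = 0.0261). Its list moved both ways, with Serpina3n and Cd14 higher, the class I genes H2-D1 and Psmb8 lower, and Gfap at 0.25 (edgeR adjusted p = 0.448). Slc38a2, a neutral amino acid transporter, was at 146, 98.5, 118 and 120.3 CPM in controls and 169, 183 and 249.7 CPM (lowest, median, highest) in STZ libraries, with STZ 5 far above the rest. Slc38a2 had a log2 fold change of 0.67 ± 0.12 (SE; edgeR adjusted p = 0.0218). Ucp2, a mitochondrial carrier, had overlapping groups at 22.3 ± 1.93 CPM in controls (SD, n = 4) and 31.9 ± 5.07 CPM in STZ libraries (SD, n = 6). Ucp2 had a log2 fold change of 0.52 ± 0.11 (SE; edgeR adjusted p = 0.0348). Bcl2l1, which holds back apoptosis, was at 0.24 (edgeR adjusted p = 0.0243). Each of Lrrtm3, Gjb6, Serpina3n, Slc38a2, Ucp2 and Bcl2l1 lost its call without control 4, with adjusted p between 0.0749 and 0.137, and without 2 to 5 other single libraries. The zinc finger gene Zfp189, at 0.70 (edgeR adjusted p = 0.00429), and Smim3, a small membrane protein gene, at 0.68 (edgeR adjusted p = 0.00437), stayed called with any 1 library left out. Without the 3 libraries highest in striatal markers Slc38a2 was at an adjusted p of 0.192 and Bcl2l1 at 0.123.

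Among the other genes that fell, Nes, the intermediate filament nestin of progenitors, vessels and reactive astrocytes, was at 17.9, 12.8, 15.7 and 17.2 CPM in controls and 8.91, 9.99 and 11.3 CPM (lowest, median, highest) in STZ libraries. Nes had a log2 fold change of -0.67 ± 0.10 (SE; edgeR adjusted p = 0.00218). Zfp36l1, which destabilises messenger RNAs with AU-rich ends, was at 24.3, 24.4, 24.7 and 24.7 CPM in controls and 13.2, 17.3 and 18.2 CPM (lowest, median, highest) in STZ libraries. Zfp36l1 had a log2 fold change of -0.55 ± 0.08 (SE; edgeR adjusted p = 0.00218). The controls lay close together and STZ 1 was lowest. Ing2, a reader of methylated histone H3, was at 37.4, 35.5, 34.7 and 37.8 CPM in controls and 26.2, 27.9 and 29.1 CPM (lowest, median, highest) in STZ libraries. Ing2 had a log2 fold change of -0.38 ± 0.05 (SE; edgeR adjusted p = 0.00204). In each the highest STZ value was below the lowest control.

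Rbm12, an RNA-binding protein gene, was at 25.6, 23.4, 23.2 and 22.9 CPM in controls and 13.4, 16.4 and 18.2 CPM (lowest, median, highest) in STZ libraries. Rbm12 had a log2 fold change of -0.55 ± 0.08 (SE; edgeR adjusted p = 0.00218). Utp14b, a retrocopy of a ribosome biogenesis gene, was at 13.7, 14.9, 22.5 and 14.99 CPM in controls and 3.56, 6.28 and 8.47 CPM (lowest, median, highest) in STZ libraries, with control 3 above the other controls. Utp14b had a log2 fold change of -1.36 ± 0.23 (SE; edgeR adjusted p = 0.0133). Reads shared with its parent gene make its level uncertain. Both, like Nes, Zfp36l1 and Ing2, stayed called with any 1 library left out. Without the 3 libraries highest in striatal markers Utp14b was at an adjusted p of 0.0527.

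No gene was called in 8 of the lists of neuronal signalling, a grouping that does not hold the lists with a call. Across 8 lists of ion channels, glutamate and GABA receptors, synaptic vesicle proteins, neuropeptides, monoamine and cannabinoid genes and neurotrophic factors, 310 genes were tested and none was called in edgeR; 34 were under an unadjusted p of 0.05 (10.97%, against 11.8% of all tested genes), and DESeq2 and limma-voom each called 3. List medians ran from -0.04 for synaptic vesicle genes to 0.09 for glutamate receptors. The melanocortin receptor Mc4r, the neuropeptide gene with the smallest p, was at 0.95 (edgeR adjusted p = 0.0910), and the serotonin receptor Htr2a at 0.44 (edgeR adjusted p = 0.162), both with overlapping groups. Outside this grouping, Lrrtm3 was the 1 called among 43 postsynaptic genes, and Slc38a2 the 1 called among 31 genes of amino acids, GABA and glutamate (where 1.40% of all tested genes were called).

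Of the metabolic and stress lists, fatty acid oxidation had 1 gene higher, Ucp2, and 1 lower, Slc16a1, of 36 tested (where 1.40% of all tested genes were called). Slc16a1 was also the 1 called of 38 glycolysis genes, and Bcl2l1 and Ppp1r10 rose among 26 genes of p53 and apoptosis (where 0.432% of all tested genes were called higher). Like the other lists, that of p53 and apoptosis was chosen with earlier results of these data known, so its share is a description only. None of 32 insulin and IGF genes was called in edgeR (8 at an unadjusted p under 0.05, against 11.8% of all tested genes, with 2 called by DESeq2 and 2 by limma-voom), with the insulin receptor Insr at 0.17 (edgeR adjusted p = 0.262). None of 42 subunits of oxidative phosphorylation was (0 at an unadjusted p under 0.05 and 0 by either other tool), and all 42 lay between -0.09 and 0.07. For endoplasmic reticulum stress it was 0 of 24 (4 at an unadjusted p under 0.05, 2 by each other tool), for the integrated stress response 0 of 25 (7, against the same 11.8%, with 2 by each other tool, and 23 of the 25 values negative) and for the NRF2 oxidative response 0 of 35 (4, with 1 by each other tool). Excitatory cortical neurons and interneurons had no called marker in edgeR among 19 and 28 (0 at an unadjusted p under 0.05 and 0 by either other tool), and oligodendrocyte markers none among 24 (2, with 1 called by DESeq2 and 0 by limma-voom).

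**Figure D4:**
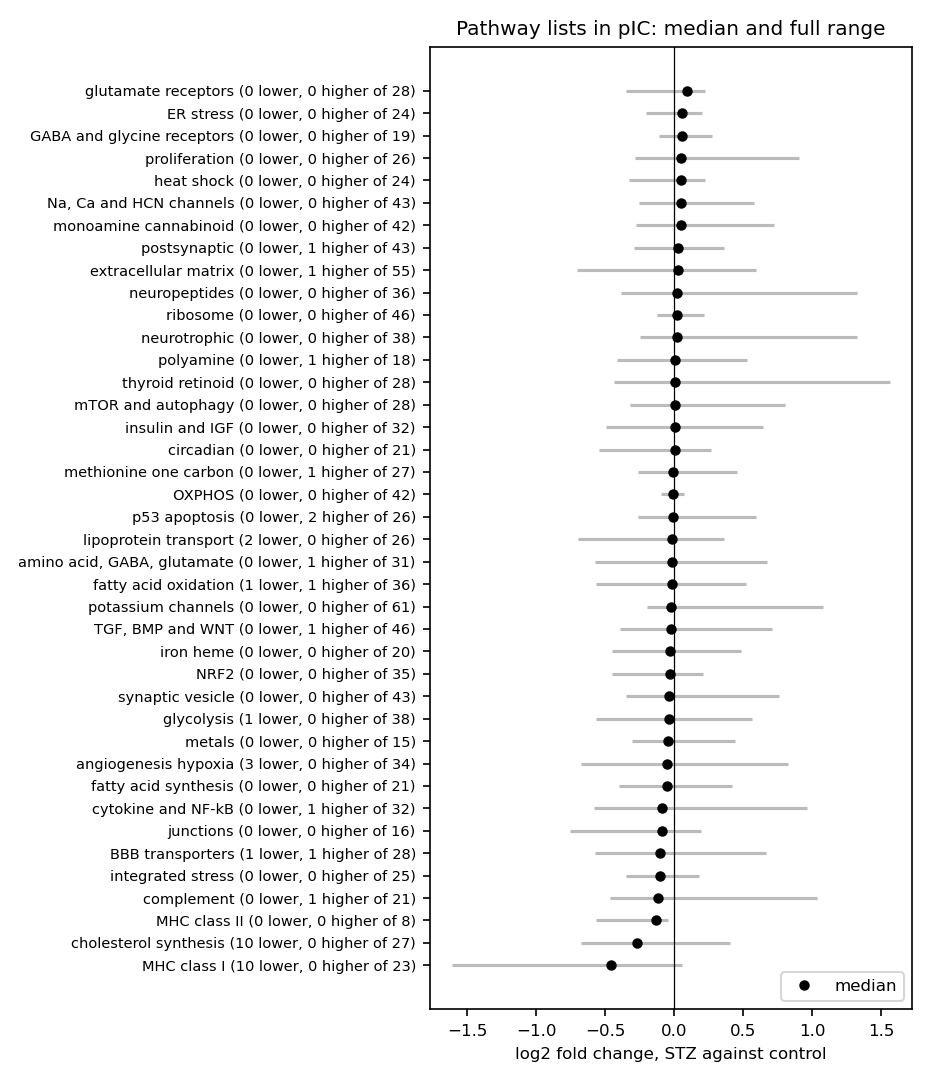
Median (point) and full range (line) of the log2 fold change of tested members for each of the 40 pathway lists, with the number of members called lower and higher. The class I and cholesterol synthesis lists lie at the foot with medians of -0.46 and -0.27, and the other medians lie between -0.13 and 0.09.

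To see where pIC differed, the STZ difference in pIC was set against that in PVT in 1 model of all 20 libraries. No gene passed for the difference between regions among 17427 tested in edgeR (0%, with 701 at an unadjusted p under 0.05 and a lowest adjusted p of 0.0679); 3 genes passed without PVT control 2 and 1 without pIC STZ 1. Of the 132 genes called in pIC outside the set-aside lists, 125 had the same sign in PVT, 40 were called there in that direction where 2.07% of all tested genes were called, and 17 were at an unadjusted p under 0.05 for the difference. The labels do not say whether pIC and PVT libraries with the same number come from the same mouse.

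Fold changes in each region come from that region's own fit and the difference, pIC minus PVT, from the joint model, so it need not equal their subtraction. For class I, the log2 fold change of Tap1 was -1.50 in pIC and -1.49 in PVT (difference 0.01 ± 0.22, unadjusted p = 0.982, edgeR adjusted p = 1.00), that of B2m -0.77 in pIC and -0.95 in PVT (difference 0.19 ± 0.14, unadjusted p = 0.176, edgeR adjusted p = 1.00), and that of Psmb9 -1.23 in pIC and -1.74 in PVT (difference 0.53 ± 0.33, unadjusted p = 0.124, edgeR adjusted p = 1.00). For cholesterol synthesis, Insig1 was -0.68 in pIC and -0.50 in PVT (difference -0.17 ± 0.15, unadjusted p = 0.259, edgeR adjusted p = 1.00) and Sqle -0.41 in pIC and -0.37 in PVT (difference -0.03 ± 0.12, unadjusted p = 0.815, edgeR adjusted p = 1.00). Among the genes described above the smallest p for a difference was that of Tekt4, at 2.25 in pIC and 0.54 in PVT (difference 1.72 ± 0.33, unadjusted p = 4.96e-05, edgeR adjusted p = 0.216).

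Ucp2 was 0.52 in pIC and -0.29 in PVT (difference 0.83 ± 0.24, unadjusted p = 0.00294, edgeR adjusted p = 0.909), Htra1 0.37 in pIC and 0.68 in PVT (difference -0.30 ± 0.09, unadjusted p = 0.00282, edgeR adjusted p = 0.909) and Mfsd2a 0.67 in pIC and 0.98 in PVT (difference -0.30 ± 0.11, unadjusted p = 0.0115, edgeR adjusted p = 1.00). Tek was -0.55 in pIC and -0.05 in PVT (difference -0.49 ± 0.18, unadjusted p = 0.0137, edgeR adjusted p = 1.00). None of these differences passed the adjustment over all tested genes, so they remain descriptions.

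**Figure D5:**
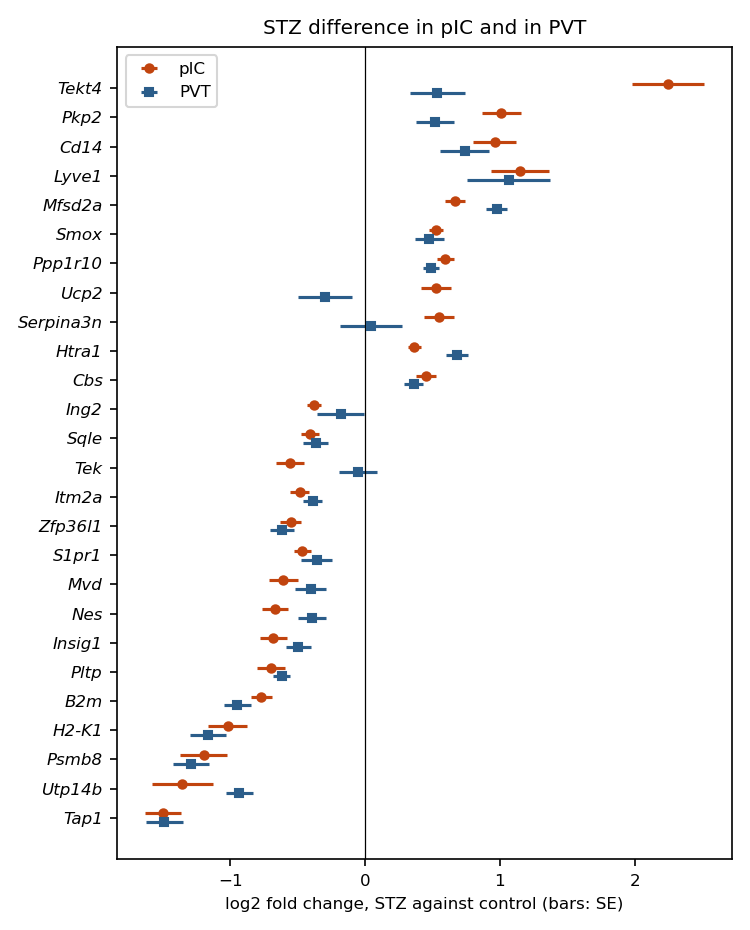
Log2 fold change of STZ against control in pIC (circles) and PVT (squares) for 26 genes, with SE; the x axis is the fold change and each row a gene. Of these genes Ucp2 alone has opposite signs in the 2 regions, and Tekt4 is set furthest apart, at 2.25 in pIC and 0.54 in PVT.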

How the data were processed

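Poly(A) RNA of mouse brain punches was sequenced (10 pIC and 10 PVT libraries). The authors deposited a table of raw read counts per Ensembl gene for all 20 libraries; the build is GRCm39 per the submitters' processing notes, and the sources used here name no aligner or counter. Of 57180 identifiers 51884 matched a symbol in GENCODE M21. The 10 pIC libraries (18969221 to 25533369 counts) were tested with edgeR 4.0.16 (TMM scaling, genes with about 10 counts in enough libraries, quasi-likelihood F test, Benjamini-Hochberg adjustment over all genes tested, threshold 0.05); the region difference used all 20. Alternatives changed the scaling, filter, tool (DESeq2 1.42.0, voom in limma 3.58.1), threshold, covariates, block and libraries; fits were tested on simulated data. CPM are counts over library totals, without TMM factors.

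Genes are named by rule: called, at least 1 CPM on average, an established symbol and outside the interferon, glucocorticoid and immediate early lists, the 12 higher and 12 lower of smallest p and the 6 of largest change each way; and of each of the pathway and marker lists up to 4 called members, or 2 where none was. Other members of lists described in full are named after their values were seen. The comparison and the 65 gene lists were chosen with earlier results of these data known. No set test was run. Some members of the cholesterol synthesis list enter its counts and are not reported here by name. Promoters are RefSeq sequence, with exons from GENCODE M21.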

Additional observations from a re-analysis of the deposited data

Results flagged for a closer look

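Of 120 groups of values of the named genes and marker sums examined, 9 had a library set apart from the rest of its group by more than the 95% critical value of Dixon's test, which by chance would occur in about 1 of 20 groups. STZ replicate 3 was highest in 3 marker sums: 5806 CPM for striatal markers (the other STZ libraries 932.4 to 2270.2 CPM), 152 CPM for choroid plexus markers (18.3 to 27.3 CPM) and 35.5 CPM for lymphoid and myeloid markers (6.33 to 15.7 CPM). STZ replicate 5 was highest for Slc16a1 at 30.4 CPM (others 21.3 to 23.7 CPM) and for Slc38a2 at 249.7 CPM (others 169 to 186 CPM). STZ replicate 1 was lowest for Zfp36l1 at 13.2 CPM (others 16.4 to 18.2 CPM). Among controls, replicate 2 was lowest for Lyve1 at 0.640 CPM (others 0.942 to 0.992 CPM), replicate 3 highest for Utp14b at 22.5 CPM (others 13.7 to 14.99 CPM) and replicate 4 lowest for Slc2a1 at 120.4 CPM (others 131 CPM).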

How the results depend on the processing

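None of the 132 called genes reversed direction in any of the 23 alternatives, though the stricter threshold and the minimum fold could not reverse it. The 226 calls became 455 with DESeq2 (206 higher, 249 lower), 367 with limma-voom, 375 with the striatal score and 62 with the endothelial score as covariate, 103 at an adjusted p under 0.01, 89 against a minimum fold of 1.2, and 128 to 272 with 1 library left out. The 132 calls outside the set-aside lists became 329 (186 higher, 143 lower), 254, 269, 11, 36 and 22 under the same settings, 52 to 177 with 1 library left out, and 77 without the 3 libraries highest in striatal markers, an alternative chosen after seeing the data. For cholesterol synthesis the 10 calls became 2 at 0.01, 1 against the minimum fold, 0 with the endothelial score, 1 without those 3 libraries and 2 to 12 with 1 left out. The 10 class I calls became 6 against the minimum fold, 1 with the endothelial score and 6 to 10 with 1 left out. The 2 border macrophage calls became 1 at 0.01, 0 with the endothelial score and 1 to 2 with 1 left out. The 2 endothelial calls became 5 with DESeq2 (2 higher, 3 lower), 4 with all 20 libraries in 1 fit (1 higher, 3 lower), 1 at 0.01, 0 with the endothelial score, 0 against the minimum fold and 1 to 4 with 1 left out. The region difference had 0 to 3 calls with 1 library left out. Leaving out a library also lowers the number of samples; beyond that the cause was not tested. Depth limits genes near 1 CPM, such as Lyve1 and Tekt4.

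The labels do not say whether control and STZ libraries with the same number share a batch. Correlations of same-numbered control and STZ libraries ran from -0.04 to 0.30. Control 1 and control 3 correlated best with the STZ library of their number, control 2 and control 4 with another. These few values cannot settle the question. With the replicate block 240 genes were called (106 higher, 134 lower), 149 of them outside the set-aside lists (90 higher, 59 lower), with 5 class I genes, all lower, and 5 endothelial genes (2 higher, 3 lower); of the 132, 73 stayed called. STZ 5 and STZ 6, without a control of their number, add nothing to the contrast in the block fit. Upper quartile scaling gave 65 higher and 177 lower.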

Other observations

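Several called genes outside the naming rule were picked after their values were seen. Mycn, a growth-related transcription factor, was at 9.58 ± 0.706 CPM in controls (SD, n = 4) and 6.11 ± 0.905 CPM in STZ libraries (SD, n = 6). Mycn had a log2 fold change of -0.64 ± 0.12 (SE; edgeR adjusted p = 0.0115) and stayed called with any 1 library left out. Hes5, a Notch target of astrocytes and progenitors, was at 7.59 ± 1.48 CPM in controls (SD, n = 4) and 4.86 ± 0.620 CPM in STZ libraries (SD, n = 6). Hes5 had a log2 fold change of -0.64 ± 0.14 (SE; edgeR adjusted p = 0.0373). The long noncoding RNA of paraspeckles Neat1 was at 33.1 ± 3.62 CPM in controls (SD, n = 4) and 18.6 ± 4.60 CPM in STZ libraries (SD, n = 6). Neat1 had a log2 fold change of -0.83 ± 0.17 (SE; edgeR adjusted p = 0.0382). Plin2, a coat protein of lipid droplets, was at a log2 fold change of -0.59 (edgeR adjusted p = 0.0431), and the death ligand Tnfsf10 at -0.87 (edgeR adjusted p = 0.0243). The transcriptional corepressors Bcor and Bcorl1 were at -0.36 (edgeR adjusted p = 0.0219) and -0.36 (edgeR adjusted p = 0.0499).

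Selenop, which carries selenium between cells, was higher at 210.2 ± 16.9 CPM in controls (SD, n = 4) and 259.6 ± 17.9 CPM in STZ libraries (SD, n = 6). Selenop had a log2 fold change of 0.31 ± 0.07 (SE; edgeR adjusted p = 0.0319). Cdh19, a cadherin of glia, was at 0.70 (edgeR adjusted p = 0.0244) and Spp1, osteopontin, at 0.59 (edgeR adjusted p = 0.0434). Apart from Mycn each of these genes lost its call without 4 to 9 single libraries, control 2, 3 or 4 among them (edgeR adjusted p up to 0.175). Calls were also lost without the 3 libraries highest in striatal markers. There the edgeR adjusted p was 0.181 for Cdh19, 0.120 for Plin2, 0.0995 for Tnfsf10 and 0.0931 for Bcorl1. It was 0.0845 for Bcor, 0.0742 for Spp1 and 0.0529 for Selenop. Neat1, Plin2, Tnfsf10 and Cdh19 had the same sign in PVT and were called there too, and Bcor had a log2 fold change of 0.07 in PVT.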
